A study of Mus musculus with 2 samples.

Results

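Forkhead transcription factors are proteins that bind DNA through a shared winged helix domain, and the letter after Fox in a gene's name marks the subclass. The family was taken as every gene whose symbol has that form and to which the array's annotation assigned at least 1 probe set (a group of short probes for a transcript) with no other gene. This gave 37 genes with 82 probe sets, out of 18193 genes with such probe sets. Uterine stromal cells of C57BL/6 mice were compared on day 4 of pregnancy, after mating with fertile males, with 1 Affymetrix array of pooled RNA per genotype. The control array held RNA from Msx1Msx2 Floxed Control mice. The Msx1Msx2-null array held RNA from mice whose floxed Msx1 and Msx2 had been removed by PRcre, a Cre recombinase expressed under the progesterone receptor gene. That driver is active in progesterone receptor-expressing cells of the epithelium and muscle as well as the stroma, so a difference in the stromal fraction need not start in stromal cells. The design text names 5 mice per genotype and the extraction protocol 4. With 1 array per group there is no replicate error and no p-value, and every difference below is between these pools.

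Several forkhead factors have known parts in the uterus. Foxa2 is the factor of the gland epithelium and is needed for glands to form and to make the cytokine Lif. Foxo1 acts downstream of insulin and PI3K signalling, which sends it out of the nucleus, and takes part in decidualization and in the epithelium's response to the embryo. Foxm1 drives genes of the G2 and M phases of the cell cycle, Foxf1 is a mesenchymal target of hedgehog signals, and Foxj1 directs the genes of motile cilia.

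The values are MAS5 signals, linear intensities in which mismatch signal has been subtracted. A floor was set at the median signal of all probe sets on each array, 31.0 for the control and 30.1 for the null array, because ratios of dimmer signals are mostly noise. Each gene is given by the probe set that was brightest over both arrays, on the mean of log2 signals, and ratios are log2 of null over control. Where a signal lay under the floor it was raised to it, and the fold is then a bound. Genes above the floor in at least 1 array are called measured. For a gene above it in 1 array alone, the sign follows almost wholly from the floor, in every count of directions below. To size the noise of single probe sets, the brightest pair of probe sets for each of 4690 genes was compared, which gave an SD of 0.27 for the log2 ratio of 1 probe set and 0.39 for the difference between a pair. Variation between mice, pools and hybridizations is not in these SDs. Levels are not compared between genes, since each probe set has its own response. Of the targeted genes, Msx1 went from 1581 to 23.0 (1448601_s_at), which is at least 52.6-fold lower, and Msx2 from 63.7 to 14.5 (1449559_at), at least 2.12-fold lower.

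Of the 37 forkhead genes, 18 had a signal above the floor in at least 1 array, which is 48.6% of the family against 65.04% of all genes. Of these 18, 15 were above it in both arrays, Foxd2 and Foxq1 in the control only and Foxp2 in the null only. At 2-fold, Foxl2 and Foxp2 were higher and Foxa2 lower, 3 of 18 genes, where 3.39% of all 11833 genes above the floor passed 2-fold in either direction. By direction the background was 1.59% higher and 1.80% lower. The other 15 genes were within 2-fold, and 13 of the 18 were within 1.5-fold. Past 1.5-fold there were 3 higher and 2 lower, 5 of 18, where 13.7% of all genes passed it, 6.79% higher and 6.92% lower. The ratios had no common direction, with 8 above and 10 below 0. Among the 15 genes above the floor in both arrays, 7 were above and 8 below 0. The median of all 18 ratios was -0.09 beside 0.02 for all genes. It was 0.04 when each gene was summarized by the median of its probe sets. The median size of the ratios, regardless of sign, was 0.29 for the family and 0.22 for all genes.

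**Figure D1:**
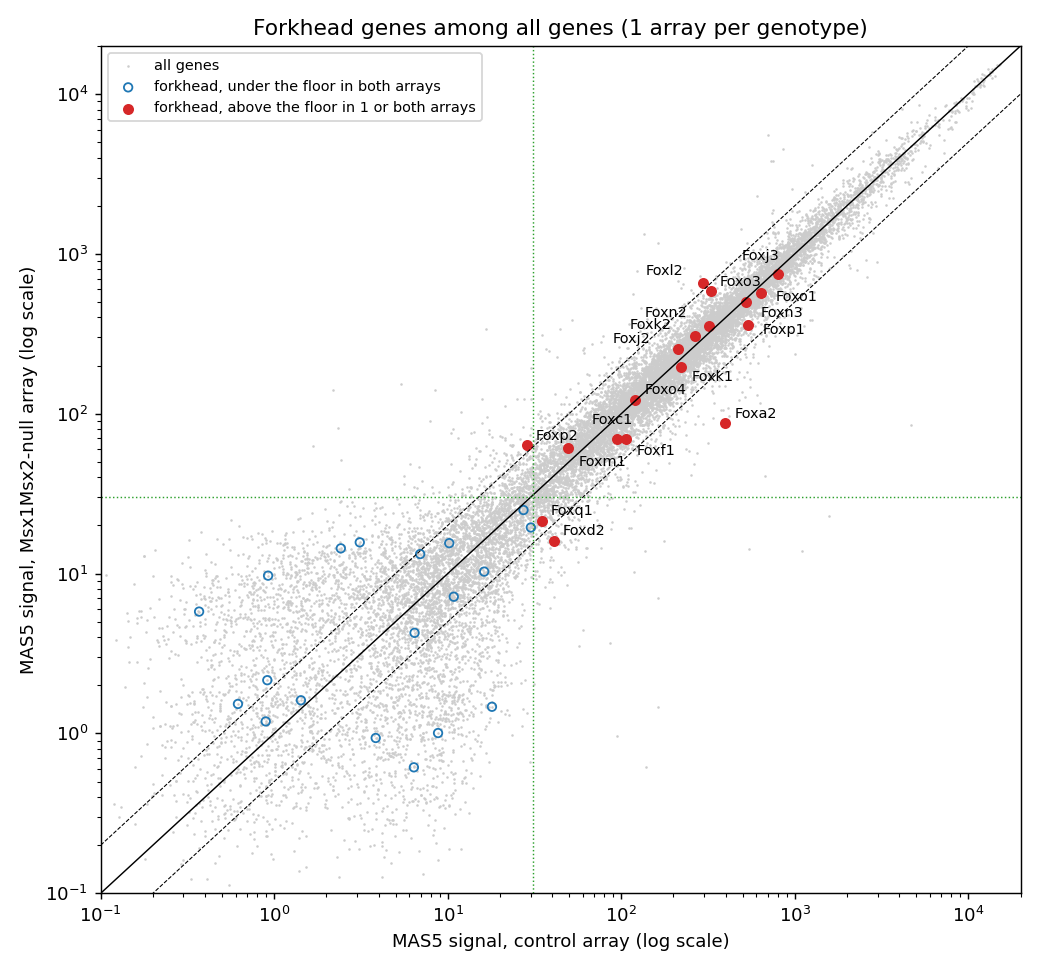
MAS5 signal of each gene in the control array (x axis, log scale) and the Msx1Msx2-null array (y axis, log scale), with all 18193 genes in grey, the 18 forkhead genes above the floor in 1 or both arrays in red with names, and the 19 under it in both as blue circles. The solid line marks equal signals, the dashed lines 2-fold and the dotted green lines the floors. Foxa2 lies below the lower dashed line, Foxl2 and Foxp2 lie at the upper one, and most of the named genes lie close to equality.

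Foxa2 had the largest ratio of the family among genes above the floor. Its single probe set, 1422833_at, had a control signal of 397 and a null signal of 87.4, 4.54-fold lower, a log2 ratio of -2.18. Only 16 of the 11833 genes had a lower ratio. With 1 probe set there was no second reading of this gene. The related Foxa1 and Foxa3, factors of endoderm-derived epithelia, were below the floor on both arrays, with 3.85 and 0.936 for Foxa1 and 6.94 and 13.2 for Foxa3.

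Foxa2 was lower together with most gland genes. Of 20 measured genes in a list of gland and gland-associated epithelial genes, 15 were lower and 5 higher, and the median log2 ratio was -0.90. Past 2-fold, 10 were lower and 2 higher, where 1.80% of all genes were lower and 1.59% higher. Prss28, Prss29 and Ttr were above the floor in the control array alone, so their sign followed from the floor. The 17 genes above it in both arrays had a median of -0.50. The trypsin inhibitor gene Spink1 was 54.6-fold lower, Ttr, a carrier of thyroid hormone, at least 36.8-fold, and the implantation serine protease genes Prss29 and Prss28 at least 18.2-fold and at least 5.45-fold. Wfdc3 was 16.5-fold lower and the chemokine gene Cxcl15, expressed in uterine glands, 4.24-fold, from 997 to 235. Sult1d1, a sulfotransferase gene, was 3.38-fold lower, Prom1 2.82-fold, Olfm1 2.23-fold and Lif 2.39-fold, from 332 to 139. On the other side Lcn2 was 8.90-fold higher and Fxyd4, a regulator of the sodium pump, 2.86-fold higher. The gland factor gene Sox9 had a log2 ratio of -0.64, and Spdef was below the floor on both arrays. Several of these genes had already stood out among all genes of this comparison, so their direction is not separate evidence on Foxa2.

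General epithelial markers were closer between the arrays. Of 17 measured, 5 were higher and 12 lower, with a median of -0.13. Epcam and Cdh1, adhesion molecules of epithelial cells, had -0.07 and -0.10. Prom1 and Krt18 were past 2-fold lower, at 2.82-fold and 2.09-fold, and Krt19 was 2.05-fold higher. Summed over the list, control and null signals were 15413 and 12725, so epithelial RNA was present in both stromal preparations. In pooled bulk RNA, fewer gland cells and less Foxa2 RNA per gland cell cannot be told apart.

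Foxl2, known as the factor that maintains ovarian granulosa cells, was the forkhead gene above the floor on both arrays with the highest ratio. Probe set 1456410_at went from 296 to 661, 2.23-fold higher, a log2 ratio of 1.16, and 113 of all genes had a higher one. The second one, 1444002_at, was below the floor on both arrays at 7.15 and 5.63 and gave no second reading. Foxl2os, a long noncoding RNA gene next to Foxl2 that is not itself a forkhead gene, went from 283 to 569 on 1456552_at, 2.01-fold higher. The pair therefore differed in the same direction and by a similar factor, on probe sets of their own. In RefSeq the starts of Foxl2 and Foxl2os lie 297 bases apart on opposite strands, and the 250 bases upstream of each start share 204 bases.

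Of the members past 2-fold, upstream sequences were at hand for Foxl2 and Foxa2 but not for Foxp2. Those of Foxl2, Foxa2 and Foxp1 are shown, Foxp1 because it was lower on many probe sets. Each is the 250 bases before the most upstream start in RefSeq, GRCm38.p6, printed 5′ to 3′ on the gene's strand. They lie at chr9:98955357-98955606 on the plus strand for Foxl2, chr2:148046970-148047219 on the minus strand for Foxa2 and chr6:99520994-99521243 on the minus strand for Foxp1. Capitals mark a forkhead core (TGTTTA, or TAAACA on the other strand) or a homeodomain core of the kind Msx proteins bind (TAATTG, or CAATTA). Neighbouring matches can share up to 2 letters, and each was counted.
Foxl2: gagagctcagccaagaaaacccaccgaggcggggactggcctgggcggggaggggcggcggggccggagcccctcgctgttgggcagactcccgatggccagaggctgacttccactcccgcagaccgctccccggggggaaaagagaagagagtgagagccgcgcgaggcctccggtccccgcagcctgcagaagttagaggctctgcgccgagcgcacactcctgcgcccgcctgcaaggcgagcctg
Foxa2: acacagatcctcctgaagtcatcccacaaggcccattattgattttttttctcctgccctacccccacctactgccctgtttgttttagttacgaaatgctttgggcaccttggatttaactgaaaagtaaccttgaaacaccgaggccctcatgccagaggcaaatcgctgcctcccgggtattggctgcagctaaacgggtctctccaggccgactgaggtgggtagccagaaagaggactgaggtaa
Foxp1: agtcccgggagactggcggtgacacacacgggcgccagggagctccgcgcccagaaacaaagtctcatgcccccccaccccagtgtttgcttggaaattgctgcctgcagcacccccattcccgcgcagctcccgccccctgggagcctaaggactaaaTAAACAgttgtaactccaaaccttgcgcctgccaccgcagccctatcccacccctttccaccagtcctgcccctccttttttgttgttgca

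The Foxl2 stretch had 70.8% G and C, the Foxa2 stretch 50.8% and the Foxp1 stretch 60.8%. Of the 3, the Foxp1 stretch alone held a core in the exact letters given, 1 forkhead core and 0 homeodomain cores. Variants of these cores were not searched. The sequence table held 24 of the 37 forkhead genes, with 29 starts. The forkhead core occurred upstream of 5 of these starts (17.2%), against 12.0% of all 32851 starts, and belonged to Foxa1, Foxp1 and Foxp3. The homeodomain core occurred upstream of 4 starts (13.8%), in the same 3 genes, against 7.17% of all starts. Foxp1 held a forkhead core upstream of each of its 3 starts and a homeodomain core upstream of 2. Both shares of starts therefore count this gene more than once. Such matches describe letters in a short window and are not binding sites measured here.

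Foxp1, a repressor known from lymphocytes, endothelium and lung epithelium, was the member with the most readings. It was lower in the null array on all 8 of its probe sets, each above the floor on both arrays. Probe set 1421140_a_at, which represents the gene, had 536 in control and 358 in null cells and was 1.495-fold lower, a log2 ratio of -0.58. The largest difference was on 1421141_a_at, from 382 to 212, 1.80-fold lower, and the smallest on 1435221_at, from 147 to 127. The 3 other bright ones were 1435222_at with 549 and 326, 1455242_at with 530 and 328, and 1421142_s_at with 260 and 165. The dimmer 1438802_at gave 136 and 93.6, and 1443258_at gave 38.3 and 30.7, just above the floors. The log2 ratios ran from -0.85 to -0.21 with a median of -0.62. No probe set reached 2-fold. All 8 read the same pair of pools, so they bear on probe noise and not on variation between mice.

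Foxp2, a close relative of Foxp1 best known from the nervous system and lung, differed in the opposite direction but was dim. On 1438232_at the signal was 28.6 and then 63.3 in null cells, at least 2.04-fold higher. Probe set 1438231_at had 31.1 and 53.6, a log2 ratio of 0.79, and 1440108_at had 18.2 and 31.1. Of these, 1438231_at alone was above the floor on both arrays, and its control signal was barely above it. For 1438232_at and 1440108_at, above the floor in the null array alone, the sign followed from the floor. The other 3 probe sets were below the floor on both arrays, among them 1458191_at with 14.9 and 12.7. Foxp4 was below the floor on both arrays at 27.3 and 25.0 on its representative probe set, and Foxp3 at 10.8 and 7.17. Of 19 measured corepressors and partners of Foxp proteins, 10 were higher and 9 lower, 0 were past 2-fold, and the median was 0.06. The chromatin remodeller gene Chd4 had 0.55, Mta3 -0.48 and the histone deacetylase gene Hdac1 0.37.

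**Figure D2:**
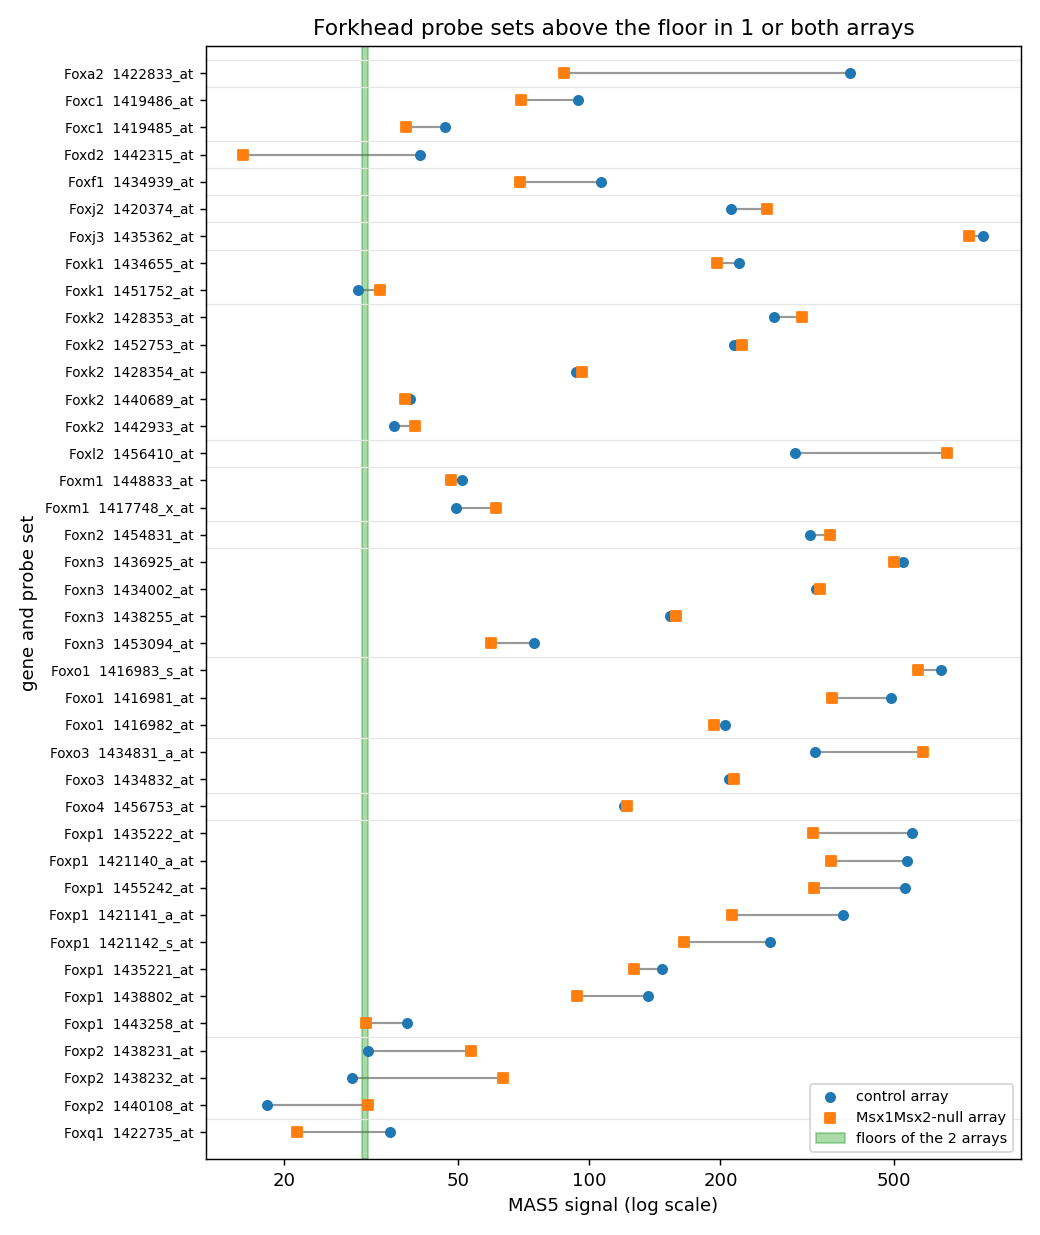
MAS5 signal (x axis, log scale) of each of the 40 forkhead probe sets above the floor in 1 or both arrays, with the control array as blue circles, the Msx1Msx2-null array as orange squares and the floors as a green band. The null square lies left of the control circle on all 8 Foxp1 and all 3 Foxo1 probe sets, and right of it on Foxl2. It is also right of it on the 3 Foxp2 probe sets shown, of which 1438231_at alone was above the floor on both arrays. The Foxo3 probe sets differ from each other.

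The FOXO class did not differ as a unit. Foxo1 was lower on all 3 probe sets above the floor, by small amounts. The signals were 641 and 567 on 1416983_s_at, 493 and 361 on 1416981_at, and 205 and 194 on 1416982_at, with log2 ratios of -0.18, -0.45 and -0.08. The ratios on 1416983_s_at and 1416982_at lie within the SD of a single probe set. Foxo3 was higher on 1434831_a_at, with 329 and 582, 1.77-fold and 0.82 on the log2 scale, whereas 1434832_at went from 209 to 215, a ratio of 0.04. These probe sets differ by 0.78, about as far apart as 2 SDs of such a difference, and 1450236_at was below the floor on both arrays. Which Foxo3 transcripts each probe set reads was not examined. Foxo4 had signals of 120 and 122, a ratio of 0.02.

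Genes that act on FOXO proteins were close in both arrays. Of 21 measured genes of the PI3K, AKT and SGK kinases, 14-3-3 proteins and cofactors, 12 were higher and 9 lower, with 0 past 2-fold and a median of 0.04. Skp2, a ubiquitin ligase subunit that also acts in the cell cycle, had 0.83, the kinase gene Sgk3 -0.56 and Pdpk1, the kinase that activates AKT, -0.39. Sgk1, a kinase that phosphorylates FOXO proteins, went from 1107 to 1234. Of 34 measured FOXO target genes 24 were lower and 10 higher, with a median of -0.26, where 47.7% of all genes had a ratio below 0. Gadd45b, a stress-response gene, was 2.20-fold lower, from 709 to 323, and Sesn2, a sestrin gene, at least 2.08-fold higher. Txnip, an inhibitor of thioredoxin, had -0.76 and the death ligand gene Fasl 0.86. The cell cycle inhibitor genes Cdkn1a and Cdkn1b had -0.28 and -0.27. The decidual FOXO target Igfbp1 and the decidual prolactin gene Prl8a2 were below the floor on both arrays. Gadd45b, Klf2 and Klf6, all lower here, are also early response genes, which tissue digestion can induce, and the part of digestion in these differences was not tested.

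Foxm1 was dim, and its probe sets did not give a direction. Probe set 1417748_x_at had 49.5 in control and 61.1 in null cells, a log2 ratio of 0.30, and 1448833_at had 51.2 and 48.1, a ratio of -0.09. The former is of the _x_at type, whose probes may also match other transcripts. The other 2 probe sets were below the floor on both arrays, among them 1448834_at with 21.3 and 26.7. Its partners and targets, in contrast, were higher in 33 of 34 measured genes, with 6 past 2-fold and a median of 0.75. Of all genes, 47.7% had a ratio below 0 and 1.59% were past 2-fold higher. The 6 were the mitotic motor genes Cenpe and Kif20a with log2 ratios of 1.13 and 1.07, Hmmr with 1.07, the proliferation marker Mki67 with 1.04, Cenpf with 1.02 and the mitotic kinase gene Plk1, from 109 to 218, with 1.00. The exception was Lin37, a subunit of the complex that recruits Foxm1, with -0.30. Lin9 and Lin54 of the same complex had 0.73 and 0.83. For Mybl2 and Lin52, above the floor in the null array alone, the sign followed from the floor. Both Foxm1 ratios were smaller than the SD of a single probe set among dim genes, which was 0.32.

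Foxf1 and Foxc1, factors of mesenchyme and vessels, were lower by less than 2-fold. Foxf1 went from 107 to 69.4 on 1434939_at, 1.53-fold lower, a log2 ratio of -0.62, and the second one was below the floor on both arrays. Foxc1 went from 94.3 to 69.7 on 1419486_at and from 46.6 to 37.9 on 1419485_at, ratios of -0.44 and -0.30. Foxd2, of the FOXD class, went from 41.0 to 16.1, at least 1.36-fold lower, and Foxq1, an epithelial factor, from 35.0 to 21.4, at least 1.16-fold lower. These bounds are small because both control signals lie near the floor.

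Several of these genes lie next to each other. In RefSeq, Foxq1, Foxf2 and Foxc1 are consecutive protein-coding genes on chromosome 13, Foxd2 and Foxe3 on chromosome 4, and Foxc2 and Foxl1 on chromosome 8, with 1 other gene between Foxf1 and Foxc2. In the first group Foxc1 was lower and Foxf2 was below the floor on both arrays. Foxq1 was above the floor in the control array alone, so its sign followed from the floor. In the group of Foxf1, Foxc2 and Foxl1, Foxf1 alone was above the floor. Foxc2 had 18.0 and 1.47, both below it.

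Hedgehog genes had no common direction beside the lower Foxf1. Of 16 measured, 6 were higher and 10 lower, with a median of -0.12. The hedgehog-binding inhibitor gene Hhip was 2.92-fold lower, from 109 to 37.2, and the co-receptor genes Cdon and Boc had -0.90 and -0.67. The target Gli1 had 0.48, the receptor gene Ptch1 -0.05 and the ligand gene Ihh, made by the epithelium, -0.50. Endothelial genes, on the other hand, were lower in 18 of 20 measured members, where 47.7% of all genes had a ratio below 0. They had 0 past 2-fold and a median of -0.59. Their summed control and null signals were 8926 and 6047. Of the 20, 19 were above the floor on both arrays, with a median of -0.62. Pdpn, a lymphatic and stromal glycoprotein gene, had -0.97, Emcn -0.89 and Pecam1 -0.80, while the lymphatic factor gene Prox1 was below the floor on both. Macrophage markers were lower in 13 of 13 measured, with a median of -0.45 and a summed signal of 9919 and 6999. Of the 13, 12 were above the floor on both arrays, with a median of -0.47. Fcgr3 and Mrc1 were 2.12-fold and 2.03-fold lower, where 1.80% of all genes were past 2-fold lower, and Fcgr1 had -0.82. The endothelial list was drawn up to go with Foxc1, Foxc2 and Foxo1. Of these, Foxc1 was lower, Foxo1 had -0.18 on its representative probe set and Foxc2 was below the floor on both arrays. Foxp1 and Foxf1 were also lower, and are named here because of their direction. The part of vessel and macrophage RNA in these values was not tested.

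Stromal markers set the labelled cell type beside these values. All 17 were above the floor on both arrays, among them the collagen and proteoglycan genes Col3a1 and Dcn with control signals of 14643 and 10705, so stromal RNA was present as labelled. Of them, 9 were higher and 8 lower with a median of 0.04. Anpep was 2.20-fold lower, and the stromal factor genes Hoxa11 and Hand2 had 0.80 and 0.63. Smooth muscle markers were higher in 10 of 11, where 47.7% of all genes had a ratio below 0. They had 0 past 2-fold and a median of 0.40, with Synpo2 at 0.82, Cnn1 at 0.70 and Actg2 at 0.66. Of the 11, 10 were above the floor on both arrays, also with a median of 0.40. The summed signal of the 11 went from 13320 in the control to 17789 in the null array. Foxl2 was higher in the same array, as was Foxo3 on 1434831_a_at but not on 1434832_at, which had a ratio of 0.04. They are named here because of their direction, and the part of muscle RNA in their values was not tested.

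**Figure D3:**
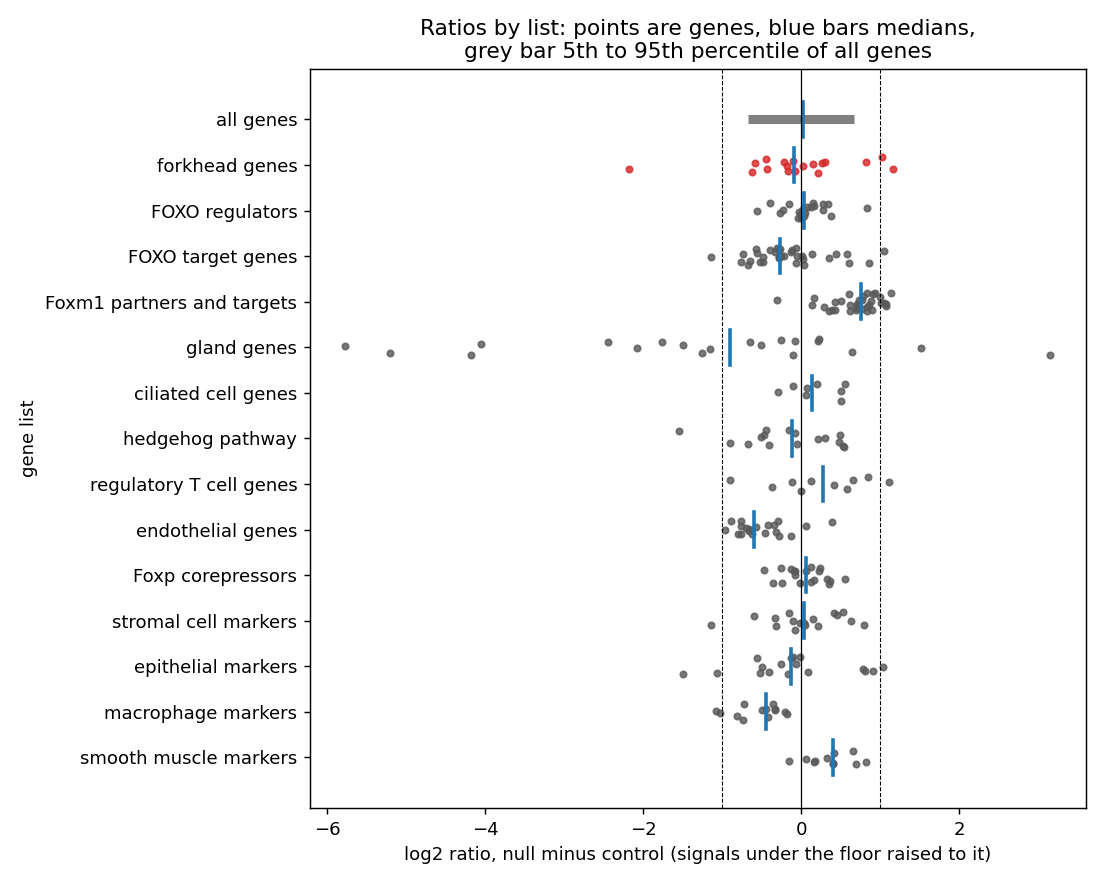
Log2 ratio, null minus control (x axis), of the measured genes of each list (rows), with forkhead genes in red, blue bars at the medians, dashed lines at 2-fold and a grey bar from the 5th to the 95th percentile of all genes (-0.67 to 0.66). The forkhead genes lie around 0 with Foxa2 far to the left, the gland genes spread widely with a median of -0.90, the endothelial median is -0.59, and the Foxm1 partners and targets lie mostly right of 0 with a median of 0.75.

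The remaining forkhead genes with signal were nearly level. Foxj2 had control and null signals of 212 and 255, a log2 ratio of 0.27, and Foxj3 had 802 and 745, a ratio of -0.11. Foxk1 and Foxk2, nuclear factors linked to autophagy and sugar metabolism, had 221 and 196, and 265 and 307, on their representative probe sets. For Foxk2, all 5 probe sets were above the floor, with ratios from -0.04 to 0.21. Foxn2 had 321 and 356. For Foxn3, a factor first described in the DNA damage checkpoint, 2 probe sets were higher and 2 lower, from -0.33 to 0.05, and the brightest gave 524 and 499. Each representative ratio of these 6 genes was no larger than the SD of a single probe set. Of the 7 forkhead genes with several probe sets above the floor on both arrays, 4 had the same sign on all of them, namely Foxc1, Foxo1, Foxo3 and Foxp1. Over 4690 genes, the brightest pair of probe sets had the same sign in 63.9%, so such agreement is not particular to the family. That share is of pairs, whereas some forkhead genes have more probe sets.

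The other 19 forkhead genes were below the floor on both arrays on their representative probe sets. They were Foxa1, Foxa3, Foxb1, Foxb2, Foxc2, Foxd1, Foxd3, Foxd4, Foxe3, Foxf2, Foxh1, Foxi1, Foxj1, Foxl1, Foxn1, Foxn4, Foxp3, Foxp4 and Foxs1. Control signals ran from 0.369 to 30.1 and null signals from 0.614 to 25.0, and a signal under the floor does not show that a gene was silent. Foxs1, at 30.1 and 19.4, was just under the floor in the control array. Ratios of such signals can be large without meaning, as for Foxd3 with 0.369 and 5.78.

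For Foxj1 and Foxp3 the genes of their cell types were examined as well. Foxj1 had 0.922 and 9.71. Of 27 ciliated cell genes on the array 8 were measured, 6 higher and 2 lower, with 0 past 2-fold and a median of 0.14. The axonemal dynein genes Dnah5, Dnah9 and Dnah11 were below the floor on both arrays. Myb, Tppp3 and Rfx3, which other cells also express, had 0.55, 0.50 and 0.50. For regulatory T cells, 10 of 16 genes were measured, 6 higher and 4 lower, with a median of 0.27 that was -0.0087 with the median over probe sets. The 8 of them above the floor on both arrays had a median of 0.06. The T cell receptor subunit gene Cd3d was 2.16-fold higher, from 38.1 to 82.2, Itgae had -0.90 and Tnfrsf18 0.65. Cd3g, a gene of the same receptor complex, went from 95.2 to 87.8, a ratio of -0.12. Cd4, Cd3e and the receptor gene Il2ra were below the floor on both arrays, as was Foxp3.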

How the data were processed

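Per the submitters' processing notes, the authors made the deposited signal intensities with MAS5 in Affymetrix Expression Console 1. The deposited intensity table is linear, with 1 value per probe set and array, and its mean, trimmed by 2% of the probe sets at each end, came to 150.0 on either array. Background and scaling settings are not given in the sources used here.

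Of 45101 probe sets, 64 controls were left out, and 34945 had 1 gene symbol in the platform annotation, 932 several and 9160 none. The 2 probe sets that list a forkhead gene with other genes were not used. All 37 members were found by Entrez ID in the GRCm38.p6 RefSeq table under the same symbol.

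No further scaling was applied. Floors lay at the 50th percentile of each array, and a gene was called by size at 2-fold, without a test. The code that makes these calls was checked on simulated arrays with known folds, which says nothing about the calls made here. The members and the lists were chosen with earlier results of these data known. Every member is accounted for, and of each list the genes past 2-fold and the 3 largest ratios measured in both arrays are named. Other list members were named after their values were seen. Alternatives were no floor, a floor at the 65th percentile, a gene's median over probe sets, no _x_at or _s_at probe sets, quantile normalization and a 1.5-fold call. Python 3.11.15, numpy 2.4.6, pandas 2.3.3 and matplotlib 3.10.9 were used.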

Additional observations from a re-analysis of the deposited data

How the results depend on the processing

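Foxa2 was past the fold threshold, and lower, under all 6 alternatives, but most of them could not change it. With 1 probe set of the _at type, its ratio is fixed under the median over probe sets and without _x_at and _s_at probe sets. With both signals above the floor, it is also fixed with no floor, and a gene past 2-fold passes 1.5-fold. Its ratio was -2.17 with quantile normalization and -2.18 with the floor at the 65th percentile. The count of forkhead genes past 2-fold was most sensitive to the floor, 2 higher and 1 lower with it and 8 higher and 6 lower with no floor, where all 37 genes enter. With a floor at the 65th percentile, which removes Foxp2, 1 was higher. With the median over probe sets 0 were higher, since the dim probe set of Foxl2 enters and gives the gene 0.41, and Foxp2 is then below the floor on both arrays. Foxo3, within 2-fold in either case, was at 0.04 with that summary. At 1.5-fold, 3 were higher and 2 lower, the added genes being Foxo3 and Foxf1. Of 80 recomputed ratios of single forkhead genes, 74 moved by less than the SD of a single probe set, and 4 changed sign. These were Foxj2, Foxk1 and Foxn3 with the median over probe sets (-0.03, 0.09 and 0.04) and Foxm1 without _x_at and _s_at probe sets (-0.09). Many of the 80 could not move, so the 74 do not measure stability. A gene above the floor on both arrays keeps its ratio with no floor. Without _x_at and _s_at probe sets, Foxm1 and Foxo1 alone changed. Genes below the floor on both arrays under an alternative are not among the 80. The forkhead median turned from -0.09 to 0.04 with the median over probe sets.

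Among the lists, the gland median was -0.62 and the regulatory T cell median -0.0087 with the median over probe sets, and the ciliated cell median 0.50 with the higher floor. List genes past 2-fold were 11 higher and 16 lower. They were 21 higher and 21 lower without a floor, and 45 higher and 38 lower at 1.5-fold. Over all 11833 measured genes, 188 were higher (1.59%) and 213 lower (1.80%). These counts were 1797 and 1772 with no floor, 97 and 123 with the higher floor, and 804 and 819 at 1.5-fold. Quantile normalization changed none of the 3 forkhead calls. No paired analysis was possible because each genotype had 1 pooled array. The single array per genotype limits the precision of every value.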
